A study of Homo sapiens with 6 samples.

Results

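The genes described here are those whose platform symbol starts with SLC25A and a digit, the symbol of the mitochondrial carrier family. The rule named 7 genes among the 14884 genes that have a probe set with exactly 1 symbol in the platform annotation. Genes of this kind are called named below, and probe sets with no symbol or more than 1 were left out. Only 2 of the 7, SLC25A15 and SLC25A2, encode carriers. The others were 4 antisense long noncoding RNAs, SLC25A5-AS1, SLC25A21-AS1, SLC25A25-AS1 and SLC25A48-AS1, and the transcribed pseudogene SLC25A51P4. The group is therefore called the SLC25A genes and not the carriers. RefSeq lists 48 protein-coding SLC25A symbols, and apart from these 2 they were not analysed here, so the values below say nothing about the carrier family as a whole. Each of the 7 genes was measured by 1 probe set, and all 7 are accounted for below.

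The values came from HK2 cells, an established human kidney line labelled as proximal tubule epithelium. The tested cells had received pLKO.1 lentivirus with an shRNA against PGC-1alpha, and the control cells the same vector with an shRNA against GFP, a jellyfish protein that human cells do not encode. Both groups went through puromycin selection, and RNA was taken on day 5 after transduction, 24 hours after selection had ended. Each group had 3 arrays, numbered in the labels as biological replicates 1 to 3, so the number of arrays limits the precision. The labels name 1 construct per group, so an effect of the target and an effect of that one shRNA sequence cannot be told apart. PPARGC1A, the gene of PGC-1alpha, had 0 probe sets with exactly 1 symbol, so the knockdown itself was not checked.

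Carriers of this family sit in the inner mitochondrial membrane and exchange nucleotides, amino acids, carboxylates, phosphate, metals and cofactors between the matrix and the cytosol. SLC25A15 and SLC25A2 are the mitochondrial ornithine carriers. SLC25A15 exchanges ornithine for citrulline in the urea cycle, and its loss causes the hyperornithinemia, hyperammonemia and homocitrullinuria syndrome. SLC25A2 is its close, intronless relative. PGC-1alpha is a transcriptional coactivator that drives mitochondrial genes together with factors such as the oestrogen-related receptors (ERR), NRF1 and GABPA. Tubule cells are rich in mitochondria and known for amino acid and ammonia metabolism.

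The promoter of SLC25A15 is shown because it is the only carrier gene of the 7 with an entry among the promoter windows used here. SLC25A2 and SLC25A51P4 had no entry. The stretch is the 250 bases before the annotated start in RefSeq, build GRCh38.p14, plus strand, chr13:40789361-40789610. It is printed in lower case because it held no match to the 3 motifs searched, whose matches would stand in capitals.
SLC25A15: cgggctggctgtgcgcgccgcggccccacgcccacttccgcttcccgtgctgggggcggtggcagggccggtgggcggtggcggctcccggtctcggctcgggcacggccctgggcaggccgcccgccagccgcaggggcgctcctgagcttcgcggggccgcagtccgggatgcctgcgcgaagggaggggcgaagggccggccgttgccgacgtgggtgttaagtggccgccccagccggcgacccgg

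The motifs were searched on both strands in windows of 300 bases around the starts. They were AAGGTCA, the core bound by ERR, CGCATGCG, the core bound by NRF1, and CCGGAAG, a core bound by GABPA. The 7 windows of the SLC25A genes belonged to SLC25A15, SLC25A21-AS1, SLC25A25-AS1 and SLC25A48-AS1, with 1 each, and to SLC25A5-AS1, with 3. The ERR core was in 0 of these 7 windows, against 3.92% of all 35116 promoter windows. The NRF1 core was also in 0 of the 7, against 2.02% of all windows. The GABPA core was in 2 of the 7, which are overlapping windows of SLC25A5-AS1 that share the site, against 10.3% of all windows. A match describes letters only, and its absence says only that these letters are not in the window. The 250 bases before the start were 79.6% G and C for SLC25A15 and 44.0% for SLC25A21-AS1, against a median of 58.0% over all windows.

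The arrays gave log2 values made by RMA (robust multi-array average), a scale on which 1 unit is a doubling of signal. Array medians lay between 5.00 and 5.04, and the correlation between arrays over the probe sets was 0.988 to 0.992 within a group and 0.982 to 0.987 across groups. Of 17 proximal tubule markers 7 were named, so the others were not read here. No kidney tissue was compared. The endocytic receptors LRP2 and CUBN averaged 3.97 and 3.92 over the 6 arrays, below 4.43, the 20th percentile of all named genes and a guide to dim signal. The other named markers lay above it: the peptidases ANPEP and MME at 4.64 and 7.46, the water channel AQP1 at 5.97, and the renal transcription factors PAX2 and PAX8 at 5.52 and 11.63. Of the 7, MME was lower in shPGC-1alpha cells, by a log2 difference of -0.61 (limma adjusted p 0.00113), and PAX8 was higher, by 0.38 (0.00645). Of 7 fibroblast markers 2 were named, DCN and LUM. Both were higher in shPGC-1alpha cells (limma adjusted p under the threshold). DCN averaged 4.21 over the 6 arrays, below 4.43, and LUM averaged 8.95. The mean log2 level of the 2 was 6.92 to 7.04 in shPGC-1alpha cells and 6.13 to 6.22 in shGFP cells. Of 6 epithelial markers 5 were named, of which 3 were lower and 0 higher in shPGC-1alpha cells. The 3 were KRT19, EPCAM and KRT18, with log2 differences of -1.42, -0.73 and -0.31, while KRT7 and KRT8 did not pass. The mean log2 level of the 5 was 7.23 to 7.41 in shPGC-1alpha cells and 7.85 to 7.97 in shGFP cells. By the same test 9.58% of all named genes were higher and 12.2% lower in shPGC-1alpha cells. Of the 4 named endothelial and leukocyte markers 0 passed. In bulk RNA, fewer cells of a kind and less RNA per cell cannot be told apart, and the part of these markers in any difference below was not tested.

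The comparison addressed which SLC25A transcripts differed in cells with the shRNA against PGC-1alpha. Of the 7 SLC25A genes 0 passed the threshold of 0.05 on the adjusted p from limma, a linear model test with shared variance information, with Benjamini-Hochberg adjustment over the 14884 genes. By the same test 21.8% of all named genes passed, 9.58% as higher and 12.2% as lower in shPGC-1alpha cells. This balance depends on the scaling: with each array shifted to the same median over the named genes, 12.5% passed as higher and 9.67% as lower, and 0 of the 7 SLC25A genes passed then too. At an unadjusted p under 0.05, 1 of the 7 passed, SLC25A21-AS1, against 33.4% of all genes. The groups did not overlap for 1 of the 7, again SLC25A21-AS1, against 38.7% of all genes. With 7 members, these counts describe the 7 genes and no wider family. The log2 difference, shPGC-1alpha minus shGFP, was positive for 5 of the genes and negative for 2. Its median was 0.01 over the 7 genes and -0.02 over all named genes. The median size of the difference regardless of sign was 0.09, against 0.14 over all named genes, and the median SE was 0.10, against 0.09.

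**Figure D1:**
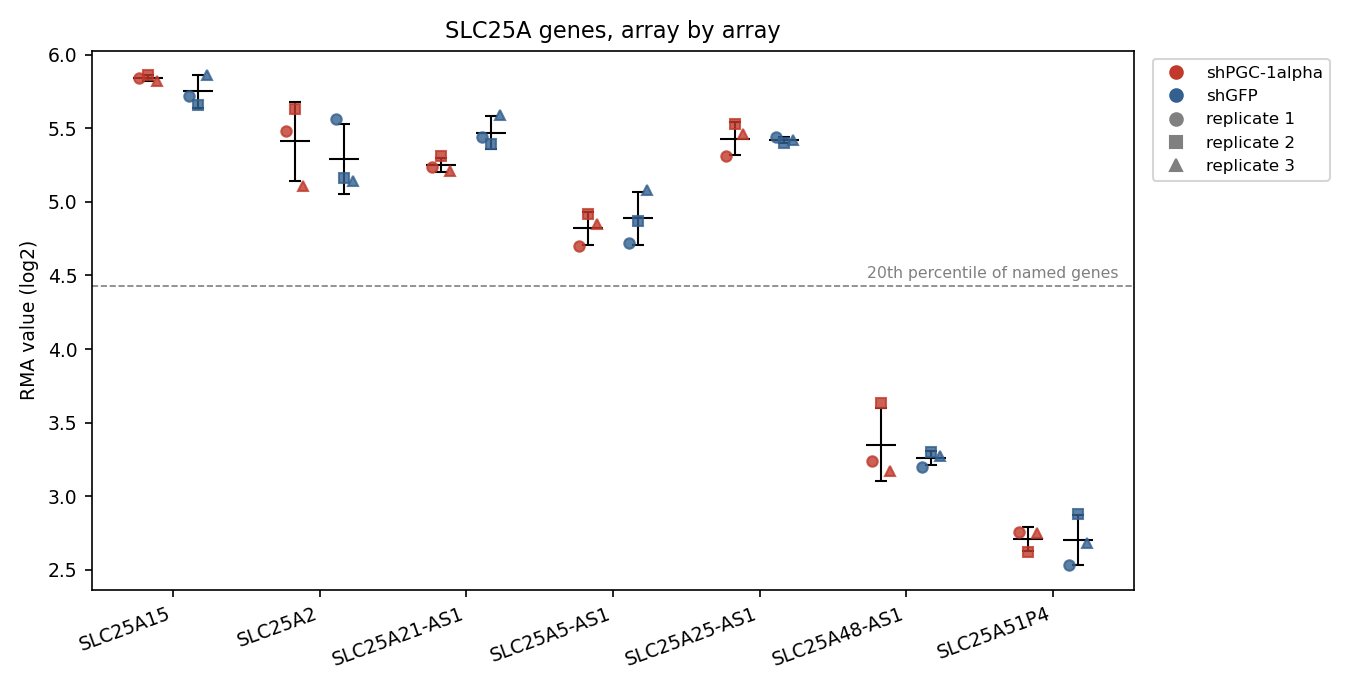
RMA values (log2) of the 7 SLC25A genes on each array, with shPGC-1alpha in red and shGFP in blue; the symbol shape gives the replicate number, and bars give the mean and SD of 3 arrays. The groups overlap for every gene except SLC25A21-AS1, and SLC25A48-AS1 and SLC25A51P4 lie below the dashed line at 4.43.

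SLC25A15, the main ornithine carrier, had RMA values of 5.84, 5.86 and 5.82 in shPGC-1alpha cells, against 5.72, 5.66 and 5.86 in shGFP cells. The shPGC-1alpha arrays lay within 0.03 of each other, and shGFP replicate 3 reached the top of their range, so the groups overlapped. The means were 5.84 ± 0.02 in shPGC-1alpha cells and 5.75 ± 0.11 in shGFP cells (SD, n = 3 each). The log2 difference was 0.10 (SE 0.07), with a limma adjusted p of 0.426. Its 95% interval ran from -0.08 to 0.27, which is 0.948-fold to 1.2-fold. The spread of the shGFP arrays, 0.21 between the lowest and the highest, was larger than this difference. RefSeq lists 5 pseudogenes of SLC25A15, and a probe set can take signal from such copies.

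SLC25A2, the second ornithine carrier, had RMA values of 5.48, 5.63 and 5.11 in shPGC-1alpha cells, against 5.56, 5.16 and 5.14 in shGFP cells. It had the largest SE of the 7 genes: shPGC-1alpha replicate 3 lay with shGFP replicates 2 and 3, and shGFP replicate 1 lay with the other two shPGC-1alpha arrays. The means were 5.41 ± 0.27 in shPGC-1alpha cells and 5.29 ± 0.24 in shGFP cells (SD, n = 3 each). The log2 difference of 0.12 (SE 0.16) had a limma adjusted p of 0.671. The 95% interval, -0.26 to 0.50, spans 0.834-fold to 1.42-fold, so a fall to 0.834-fold or a rise to 1.42-fold was not excluded. SLC25A2 and SLC25A15 are close in sequence, and signal of one on the probes of the other was not tested, so their values are uncertain to that extent.

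Whether the ornithine carriers changed unequally was asked within arrays. The log2 value of SLC25A2 minus that of SLC25A15 averaged -0.44 ± 0.25 in shPGC-1alpha cells and -0.46 ± 0.28 in shGFP cells (SD, n = 3 each). The change of 0.02 was far smaller than either SD, with an exact two-sided permutation p of 0.9 for this 1 pair. With 3 arrays against 3 the smallest p this test allows is 0.1. The difference of signals between probe sets is not a ratio of transcript amounts, and only its change between groups is read here.

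SLC25A21-AS1 was the gene with the largest difference of the 7. It is an antisense RNA whose annotated span overlaps SLC25A21, the gene of the carrier for oxoadipate and oxoglutarate. Its RMA values were 5.24, 5.31 and 5.21 in shPGC-1alpha cells, against 5.44, 5.39 and 5.59 in shGFP cells. All shPGC-1alpha arrays were below all shGFP arrays, with a gap of 0.08 between the nearest arrays. The means were 5.25 ± 0.05 in shPGC-1alpha cells and 5.47 ± 0.11 in shGFP cells (SD, n = 3 each), a log2 difference of -0.22 (SE 0.08) or 0.859-fold. The 95% interval ran from -0.40 to -0.04, and the unadjusted p was 0.0225. The limma adjusted p was 0.0841, above the threshold, and it ranged from 0.0547 to 0.231 over the 14 alternatives that tested this gene. SLC25A21 itself was not analysed here.

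SLC25A5-AS1 overlaps SLC25A5, the gene of ADP/ATP translocase ANT2, which exchanges ADP and ATP across the inner membrane. It had RMA values of 4.70, 4.92 and 4.85 in shPGC-1alpha cells, against 4.72, 4.87 and 5.08 in shGFP cells. The groups overlapped over most of their range, and shGFP replicate 3 was the highest array. The log2 difference was -0.07 (SE 0.11, 95% interval -0.32 to 0.19), with a limma adjusted p of 0.73. Without shGFP replicate 3 it was 0.03, so 1 array set its sign.

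SLC25A25-AS1 is annotated next to SLC25A25, the gene of a calcium-regulated carrier of ATP-magnesium and phosphate, without overlapping it. Its RMA values were 5.31, 5.53 and 5.46 in shPGC-1alpha cells, against 5.44, 5.40 and 5.42 in shGFP cells. The shGFP arrays lay within 0.04 of each other and inside the range of the shPGC-1alpha arrays, which spanned 0.22. The log2 difference was 0.01 (SE 0.08, 95% interval -0.16 to 0.19), with a limma adjusted p of 0.932. The interval leaves room for 0.892-fold to 1.14-fold.

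The remaining 2 genes were dim, with means over the 6 arrays below 4.43. SLC25A48-AS1, an antisense RNA that lies inside the span of SLC25A48, had RMA values of 3.24, 3.63 and 3.17 in shPGC-1alpha cells, against 3.20, 3.30 and 3.27 in shGFP cells. A single array, shPGC-1alpha replicate 2, stood above the other five. The log2 difference was 0.09 (SE 0.12, 95% interval -0.20 to 0.38; limma adjusted p 0.677), and -0.05 without that array. SLC25A51P4, a pseudogene copy of SLC25A51, whose product carries NAD into the matrix, had RMA values of 2.76, 2.62 and 2.75 in shPGC-1alpha cells, against 2.53, 2.88 and 2.68 in shGFP cells. The shGFP arrays enclosed the shPGC-1alpha arrays, and the log2 difference was 0.01 (SE 0.10, 95% interval -0.22 to 0.25; limma adjusted p 0.946). At such levels the RMA values carry no detection call, and whether either RNA was present was not tested. RefSeq lists 4 pseudogenes of SLC25A51, which can share probes.

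The antisense RNAs SLC25A5-AS1, SLC25A21-AS1 and SLC25A48-AS1 overlap the span of their namesake carrier genes. The strand that each probe set reads is not given in the sources used here, so signal from the antisense RNA and from the gene it overlaps cannot be told apart. Their values are therefore uncertain as measures of the antisense RNA alone.

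**Figure D2:**
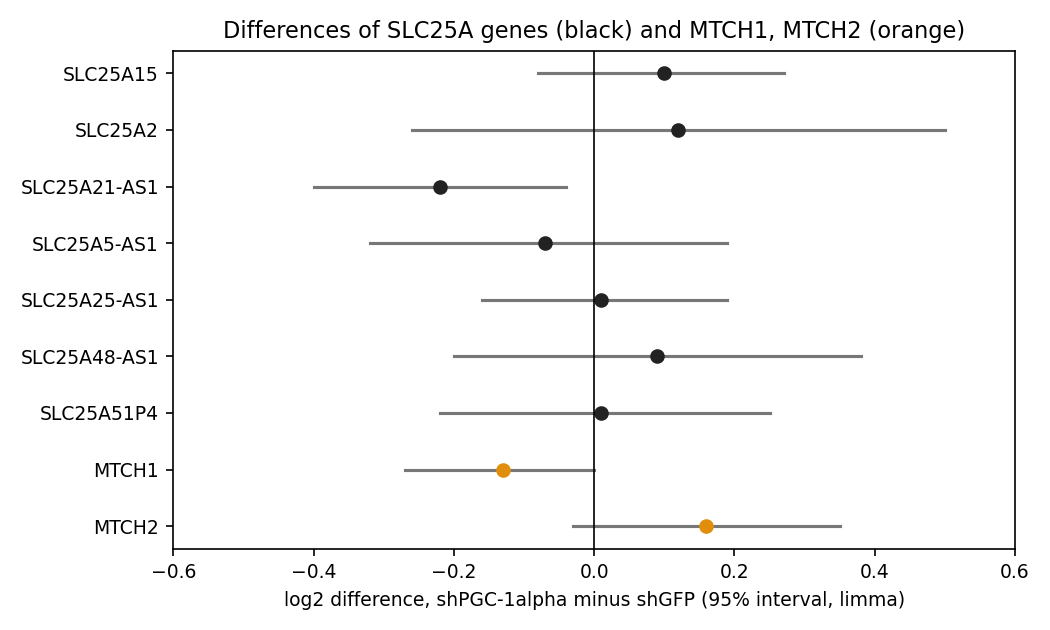
Log2 differences, shPGC-1alpha minus shGFP, with 95% intervals from limma (3 arrays per group), for the 7 SLC25A genes in black and the carrier relatives MTCH1 and MTCH2 in orange. The interval of SLC25A21-AS1, -0.40 to -0.04, is the only SLC25A interval that does not include 0, before adjustment over all genes.

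The intervals bound how far the SLC25A genes could have moved. The widest of the 7 was that of SLC25A2. For SLC25A15 and SLC25A25-AS1 the 95% interval excluded a fall below 0.892-fold and a rise above 1.2-fold, one gene at a time. For SLC25A21-AS1 it excluded a fall below 0.759-fold. These intervals are not adjusted over the genes.

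Genes that work beside the carriers were read in 7 related lists, from which 56 of 92 genes were named. Of these, 9 rose and 2 fell past a limma adjusted p of 0.05, with a median log2 difference of 0.06. That is 16.1% higher and 3.57% lower, beside 9.58% and 12.2% among all genes, and the lists were not tested as lists. With the arrays shifted to the same median, 12 related genes rose and 2 fell, which is 21.4% and 3.57%, beside 12.5% and 9.67% among all genes. The count of 9 was 2 to 4 with any 1 array left out, 4 with the replicate number as a block and 0 when all probe sets were tested.

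MTCH1 and MTCH2, carrier-like proteins of the outer membrane that RefSeq also lists as SLC25A49 and SLC25A50, did not pass. MTCH1 had RMA values of 9.94, 9.90 and 9.97 in shPGC-1alpha cells, against 10.09, 10.07 and 10.06 in shGFP cells, a log2 difference of -0.13 (SE 0.06; limma adjusted p 0.161). MTCH2 had 10.64, 10.69 and 10.52 in shPGC-1alpha cells, against 10.53, 10.49 and 10.35 in shGFP cells, a log2 difference of 0.16 (SE 0.08; limma adjusted p 0.212). The groups did not overlap for MTCH1, and overlapped for MTCH2.

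The route by which carriers reach the inner membrane, through the TOM receptors, the small TIM chaperones and the TIM22 translocase, had 11 of 12 genes named. Of these 3 rose and 0 fell, beside 9.58% higher and 12.2% lower among all named genes. The small TIM subunit TIMM8B rose by 0.32, and the TOM receptors TOMM20 and TOMM22 by 0.26 and 0.24 on the log2 scale. Each of these 3 calls was lost on leaving out any of 5 single arrays. TIMM22, the translocase pore, at -0.10, and TOMM70, a receptor for carriers, at 0.15, did not pass. The small TIM subunit TIMM9, at 0.24 with a limma adjusted p of 0.0506, lay just above the threshold. TIMM22, TOMM70 and TIMM9 were singled out after their values were seen.

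The enzymes that handle ornithine and citrulline gave context for SLC25A15 and SLC25A2. Ornithine aminotransferase OAT was at -0.15 (limma adjusted p 0.223), argininosuccinate synthase ASS1 at -0.18 (0.128) and argininosuccinate lyase ASL at 0.10 (0.346). Ornithine transcarbamylase OTC, which makes citrulline in the liver, was at 0.00, with a mean of 3.24 in both groups, below 4.43. These 4 genes were singled out after their values were seen. They belong to a list of 10 named amino acid enzymes, of which 2 rose and 0 fell, beside 9.58% and 12.2% of all named genes. DBT, a subunit of the branched-chain keto acid dehydrogenase, rose by 0.32, and the serine hydroxymethyltransferase SHMT2 by 0.26. The call of DBT held without each single array, and that of SHMT2 was lost without any of 5.

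**Figure D3:**
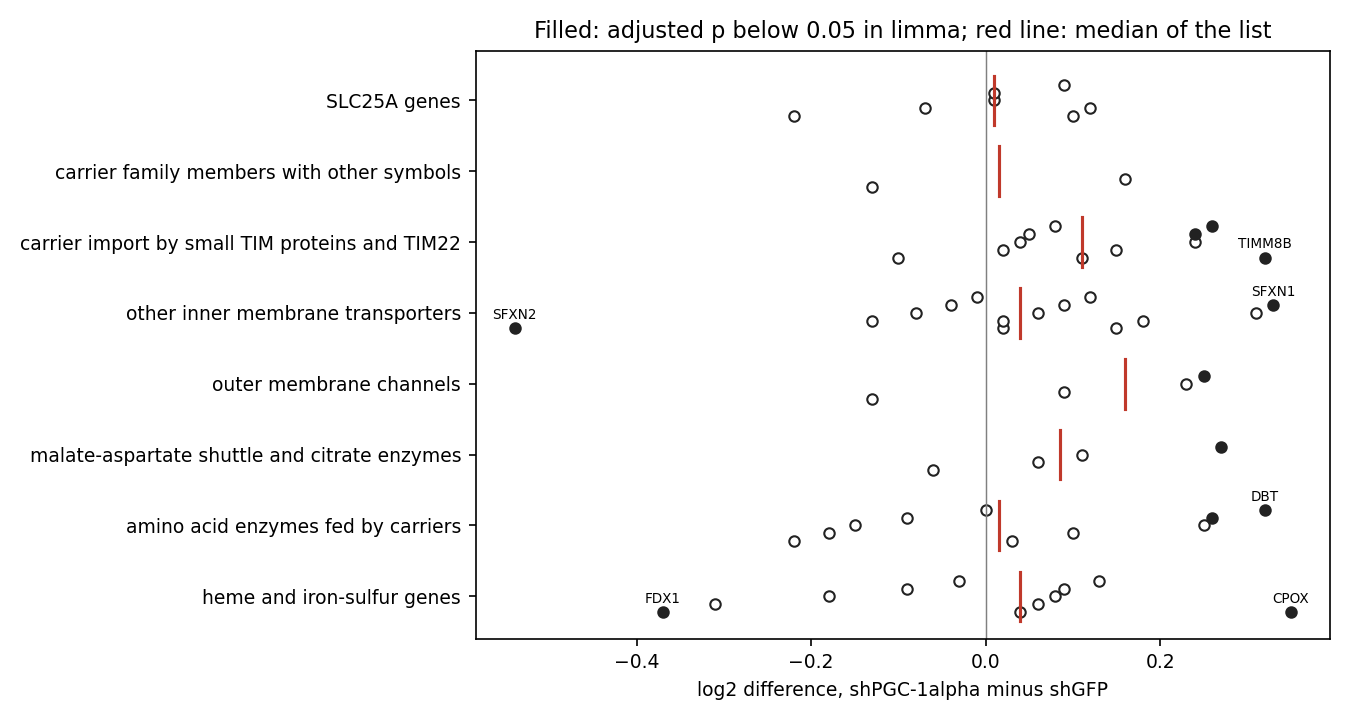
Log2 differences, shPGC-1alpha minus shGFP, of each gene (circle) in the SLC25A group and in 7 related lists; filled circles passed a limma adjusted p of 0.05 and red lines are list medians. The SLC25A genes lie between -0.22 and 0.12 with no filled circle, and SFXN2, at -0.54, lies farthest from 0.

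A list written as other transporters of the inner membrane outside the family had 14 of 22 genes named, of which 1 rose and 1 fell. For this list and those that follow, the shares among all named genes were 9.58% higher and 12.2% lower. The 14 include TMEM165, which is a Golgi protein and did not pass (limma adjusted p 0.16). SFXN2, a sideroflexin tied to iron handling, had RMA values of 7.45, 7.28 and 7.18 in shPGC-1alpha cells, against 7.82, 7.83 and 7.90 in shGFP cells. It fell by 0.54 (SE 0.08; limma adjusted p 0.00368), and the call held without each single array. SFXN1, the mitochondrial serine transporter, rose by 0.33, a call lost without shGFP replicate 2 or shGFP replicate 3. Of 4 outer membrane genes, VDAC1, the channel for metabolites, rose by 0.25 and 0 fell, a call lost without any 1 of the 6 arrays. Of 4 named shuttle and citrate genes, GPD2 of the glycerol phosphate shuttle rose by 0.27, lost without any of 4 single arrays, and 0 fell. Of 11 heme and iron-sulfur genes, CPOX, an enzyme of heme synthesis, rose by 0.35, lost without any of 5 single arrays. In the same list the ferredoxin FDX1 fell by 0.37, which held without each single array.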

How the data were processed

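The authors deposited log2 values for 53617 probe sets on 6 arrays, and per the submitters' processing notes these were made by RMA in Affymetrix Expression Console. RMA includes background correction and a quantile step that equalises the arrays, so a shift of most transcripts in 1 direction would be reduced. Their versions were not given in those notes. The log2 values, 0.66 to 13.78, were used as deposited, and scan batches were not analysed here. The 16098 probe sets to which a platform table gave exactly 1 gene symbol were kept as named. The other 37519 had no symbol or more than 1 and were left out as unnamed here. The probe set with the highest mean stood for each of 14884 genes. Sample titles gave the groups and the replicate numbers. Nothing says that cultures were transduced separately, so p-values reflect only the spread between these 6 samples, which may be technical.

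Differences were tested by limma 3.58.1 under R 4.3.3 (lmFit, eBayes, no filter on dim genes, no replicate block), two-sided, with Benjamini-Hochberg adjustment over all 14884 genes and a threshold of 0.05. The procedure was tested on simulated data, drawn independently for each gene and without array effects. The changes planted there were larger than any difference of the SLC25A genes, so whether differences as small as theirs would be found was not tested. Members and lists were chosen with earlier results of these data known. All 7 SLC25A genes are named; in related lists, up to 4 genes past the threshold with the smallest p, or 2 where none passed. Promoters are from RefSeq, with 5 of the 7 genes matched. Alternatives were each array left out, a replicate block, filters on dim genes, other probe set choices, scalings and variance models.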

Additional observations from a re-analysis of the deposited data

How the results depend on the processing

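None of the 7 SLC25A genes passed an adjusted p of 0.05 under any of the 15 alternatives to the limma fit that tested them. SLC25A15, SLC25A2 and SLC25A21-AS1 kept their sign in each, but not their size. With 1 array left out the log2 difference of SLC25A15 ran from 0.05 to 0.15, that of SLC25A2 from 0.01 to 0.27 and that of SLC25A21-AS1 from -0.26 to -0.16, and the sign of SLC25A2 rests on a value near 0 without shPGC-1alpha replicate 2. The log2 difference of SLC25A25-AS1 ran from -0.04 to 0.07 with 1 array left out, that of SLC25A48-AS1 from -0.05 to 0.18, that of SLC25A5-AS1 from -0.15 to 0.03 and that of SLC25A51P4 from -0.07 to 0.1, so these 4 signs are not settled. The change in the SLC25A2 to SLC25A15 log2 ratio, with arrays left out as a check added after the data were seen, ran from -0.11 to 0.18. Over all genes, 1426 were higher and 1817 lower, against 767 and 970 named genes when all 53617 probe sets were adjusted together, and 1011 to 1170 higher and 1301 to 1502 lower with 1 array left out. Median scaling turned the balance, with 1867 higher and 1440 lower, and quantile scaling of the named genes gave 1612 and 1708; the share of calls that were higher was 56.5% and 48.6%, against 44% as deposited. The count of related genes that rose, 9, was 2 to 4 with 1 array left out, 0 with all probe sets, 4 with the replicate block and 14 with a variance trend and robust eBayes. The count that fell, 2, was 5 with trend and robust eBayes and 4 with per-gene variance. The causes were not tested. Same-numbered samples correlated at 0.12, 0.09 and 0.02 in their deviations from the group means, and differently numbered samples at -0.12 to 0.06. The numbers were not taken as pairs, though these values cannot exclude pairing. The replicate block changed no call of an SLC25A gene, with 0 passing. With a filter at the 40th percentile, 5.61, only SLC25A15 of the 7 was tested.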
